A study of Homo sapiens with 12 samples.

Results

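The 9 genes described here make, store, take back and break down catecholamines: TH, DDC, DBH, PNMT, GCH1, SLC18A1, SLC18A2, SLC6A2 and MAOA. They were taken by symbol, with no measured value in the rule, as 9 of the 58735 genes of the table, and each matched 1 row. RNA sequencing had been done on 12 libraries from 2 human neuroblastoma lines, tumour lines of the sympathetic nervous system, in 4 groups of 3 libraries. In each line, libraries with the genotype label WT and a control hairpin (shNC in the titles) stood beside libraries labelled with a short hairpin RNA against TSPYL5 (shL5 in the titles). No other treatment is labelled, and the labels name no clone and no culture for a replicate. The p-values below therefore measure only the spread between libraries, which may be technical. The first line is SK-N-SH in all labels. The second carries 2 names, SK_N_BE2 in titles and SH-SY5Y elsewhere, and is called the second line here.

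Dopamine, noradrenaline and adrenaline are made from tyrosine in 1 chain of enzymes. Tyrosine hydroxylase (TH) makes L-DOPA and sets the rate, DOPA decarboxylase (DDC) makes dopamine, dopamine beta-hydroxylase (DBH) makes noradrenaline inside storage vesicles, and PNMT methylates noradrenaline to adrenaline. TH needs tetrahydrobiopterin, whose synthesis starts with GTP cyclohydrolase (GCH1). The vesicular monoamine transporters SLC18A1 and SLC18A2 load the amines into vesicles, the noradrenaline transporter SLC6A2 takes them back into the cell, and the mitochondrial enzyme MAOA oxidises them. Sympathetic neurons and chromaffin cells of the adrenal medulla are the textbook sites of this chain, and neuroblastomas arise from the same lineage.

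Depth and labels bear on everything below. Whole reads recovered from the deposited values came to 15425460 to 19249018 per library. The labelled target goes against its label in SK-N-SH: TSPYL5 read 13.1, 13.4 and 12.2 FPKM (fragments per kilobase of transcript, scaled for the size of the library) in control and 17.1, 18.3 and 17.8 under the knockdown label. In the second line it read 24.0, 24.4 and 25.8 in control and 13.3, 12.4 and 12.6 in knockdown. MYCN, an oncogene amplified in some neuroblastomas, averaged 0.0408 FPKM in SK-N-SH control, 1028 in SK-N-SH knockdown and 1040.4 in second line control, and had 0 reads in second line knockdown. "Knockdown" and the line names are therefore used below only as the libraries are labelled. The summed level of 5 sympathetic neuroblast markers (HAND2, GATA3, CHGA and STMN2 among them) ran from 73.5 to 86.2 FPKM in SK-N-SH control and from 1196 to 1292 in SK-N-SH knockdown. It ran from 1309 to 1332 in second line control and from 57.2 to 72.2 in second line knockdown. The sum of 5 mesenchymal markers (PRRX1, TWIST1, COL1A1, COL3A1, FN1) moved the other way: 1628 to 1958, 148 to 151, 147 to 162 and 1048 to 1249 FPKM in the same order of groups. Of these, 4 did so singly. TWIST1 went with the neuroblast markers instead, at means of 73.0, 126, 134 and 46.9 FPKM. Markers of Schwann cells (4 genes) summed to at most 1.83 FPKM and those of epithelium (3 genes) to at most 1.70 in any library. The sum of 4 blood and endothelial markers was low but had the pattern of the 9 genes: 0.107 to 0.157, 1.15 to 1.32, 0.648 to 0.857 and 0.0520 to 0.128 FPKM in that order of groups. Most of it was PTPRC, at 0.0291, 1.22, 0.711 and 0.0310 FPKM, and the Schwann cell marker S100B went the same way at 0.0368, 0.806, 0.545 and 0.0128. These levels are like those of MAOA, SLC18A1 and SLC18A2 below. The part that these shifts of markers, or the identity of the libraries, play in the results below was not tested, nor was an exchange of libraries between the lines. In bulk RNA, fewer cells that express a gene and less of its RNA per cell cannot be told apart.

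RefSeq start-site windows (build GRCh38.p14, 250 bases before the start) were given for 4 of the 9 genes, DDC, DBH, SLC18A2 and MAOA, with 5 windows in all. Shown are 1 DDC window without a match, and the stretches of SLC18A2 and DBH that hold theirs, since these genes differed between the same groups of libraries. Capitals mark matches, on either strand, to motifs searched in all of them. The first was TGACGTCA, the cAMP response element, present in 1.65% of the 35116 RefSeq windows of this length. Its core TGACG, which lies inside it, was present in 21.2%, and the GC box GGGCGG in 42.6%. The TATA box TATAAA was present in 10.7% of windows. Of the E boxes, the form CAGCTG was present in 14.0% of windows, while the form CATCTG was present in 12.2%. A paired homeodomain site was present in 0.182%, and the GATA site AGATAA in 9.17%.
DDC, window of the second start entry, chr7:50561072-50561321, minus strand: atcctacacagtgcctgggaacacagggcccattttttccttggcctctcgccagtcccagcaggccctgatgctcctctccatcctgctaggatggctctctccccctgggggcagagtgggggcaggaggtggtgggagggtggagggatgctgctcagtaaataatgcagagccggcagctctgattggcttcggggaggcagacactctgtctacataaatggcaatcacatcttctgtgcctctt
SLC18A2, from 250 to 41 bases before the start, chr10:117240864-117241073, plus strand: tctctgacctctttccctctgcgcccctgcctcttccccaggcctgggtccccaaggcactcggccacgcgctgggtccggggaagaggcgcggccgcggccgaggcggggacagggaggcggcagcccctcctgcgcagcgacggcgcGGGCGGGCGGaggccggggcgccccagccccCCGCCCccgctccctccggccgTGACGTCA
DBH, 30 bases around its match, chr9:133636170-133636199, plus strand: aactcccactgaTGACGtccatgtgtcatt
The SLC18A2 window held the full TGACGTCA at positions -48 to -41 from the start and 3 GC boxes, 2 of which overlap. DBH held the core TGACG at -181 to -177. Neither DDC window held any of the motifs. The MAOA window held 4 GC boxes and 1 CAGCTG. The RefSeq starts of DBH and MAOA lie 1015 and 1392 bases inside the GENCODE genes. All 250 bases of both windows are annotated as exon, so these 2 windows are not sequence upstream of the gene. The second DDC start lies 4386 bases inside its gene, and its window holds 0 annotated exon bases. In the SLC18A2 window 41 bases are annotated as exon. These matches describe the letters only.

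TH, DDC, GCH1, SLC6A2 and DBH were higher in SK-N-SH knockdown than in SK-N-SH control, and lower in second line knockdown than in second line control. The size ran from 3.70-fold for DBH to at least 6567-fold for TH in SK-N-SH, and from 7.17-fold for GCH1 to at least 9723-fold for TH in the second line. These 5 genes passed a filter of a mean of 0.5 FPKM over the 12 libraries and were tested with limma on log2(FPKM + 1). All 5 rose in SK-N-SH, where 79.8% of the 15856 genes tested passed an adjusted p of 0.05 and 40.7% did so as higher. All 5 fell in the second line, where 80.0% passed and 40.2% did so as lower. Most genes thus differed between these libraries, and a call on its own sets no member apart. The median log2 fold of the 5 was 3.43 in SK-N-SH and -3.13 in the second line, beside 0.02 and -0.02 over all genes tested. TH, DDC and SLC6A2 passed the filter only through the groups where they were high, and the 4 members below it are left out. The median over all genes lies near 0 with calls in both directions, so it gives no size of fold. These medians therefore do not set the members apart.

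**Figure D1:**
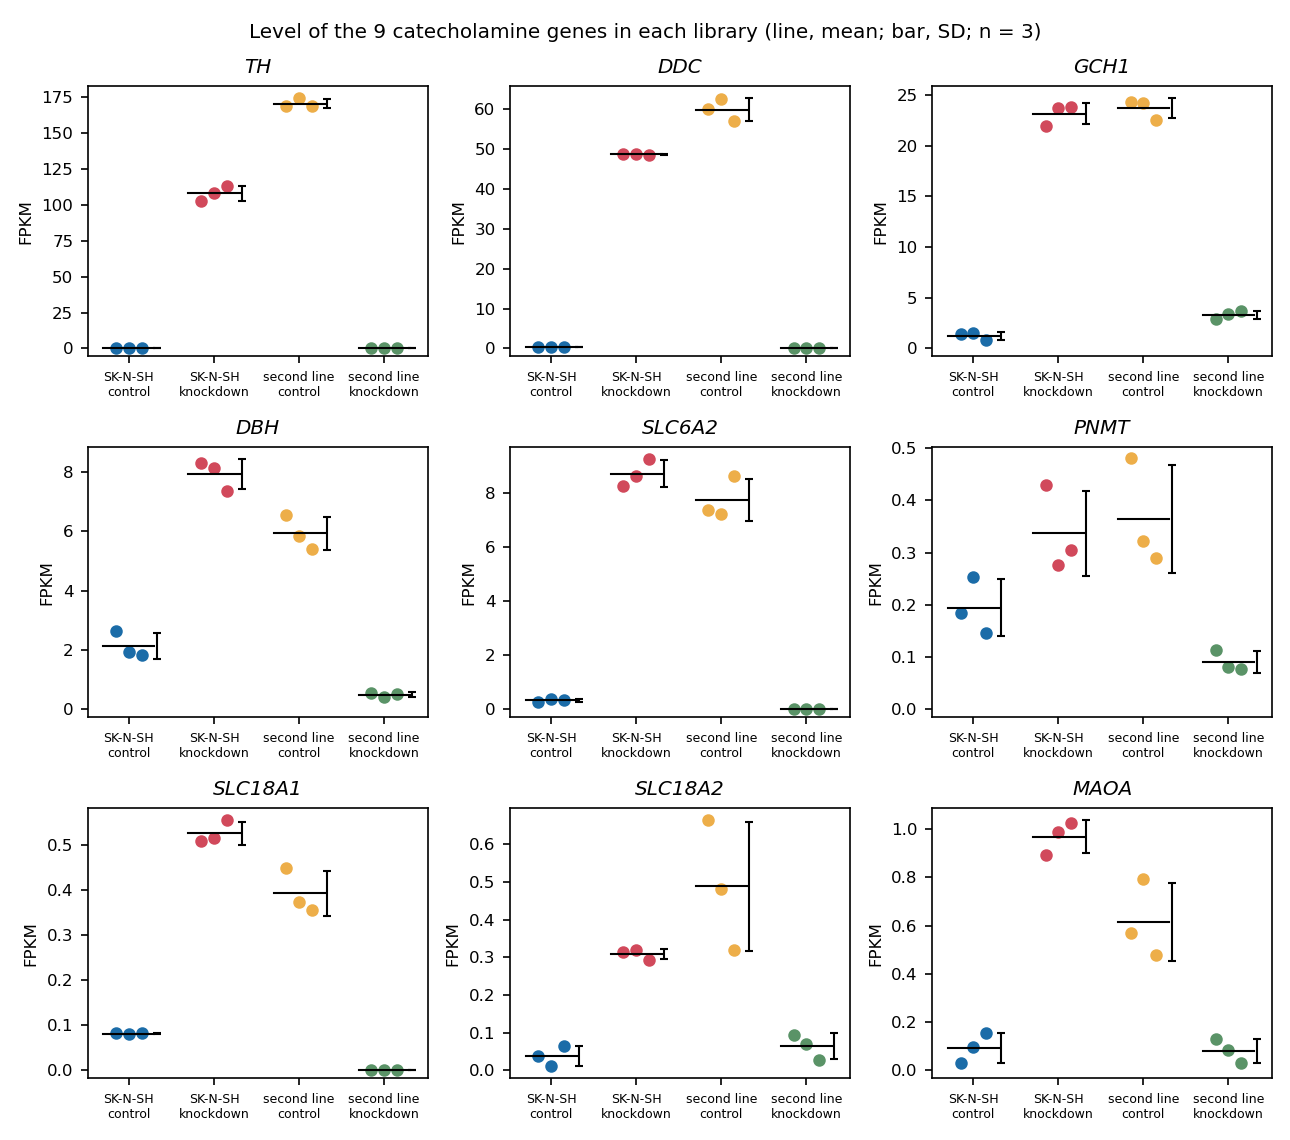
FPKM of the 9 genes in each of the 12 libraries, 1 panel per gene with its own linear axis. Points are libraries, horizontal lines the mean of 3 and bars the SD, coloured by labelled group. In every panel second line control and SK-N-SH knockdown libraries sit above the SK-N-SH control and second line knockdown libraries, and TH has 0 reads in the latter 2 groups.

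TH (ENSG00000180176, chromosome 11, 2163929 to 2171877 on GRCh38, minus strand) had 0 reads in all 3 SK-N-SH control and all 3 second line knockdown libraries. It read 103, 108 and 113 FPKM in the SK-N-SH knockdown libraries and 168, 174 and 169 in second line control. The group means were 108 ± 5.31 and 170 ± 3.08 FPKM (SD, n = 3), from 17731 and 28035 reads. A total of 3 reads over a group would have equalled 0.0165 FPKM in SK-N-SH control, or 0.0175 in second line knockdown, and the folds given above are lower bounds against those floors. In SK-N-SH its log2 fold was 6.77 (SE 0.04, limma adjusted p = 3.516e-16), and in the second line -7.42 (adjusted p = 1.716e-16). Between the extremes there was no library at an intermediate level.

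GCH1 (ENSG00000131979, chromosome 14, 54842008 to 54902852, minus strand), the first enzyme of the cofactor TH needs, was present in every library. It read 1.42, 1.56 and 0.816 FPKM in SK-N-SH control and 22.0, 23.7 and 23.9 in SK-N-SH knockdown, an 18.3-fold rise (log2 fold 3.43, SE 0.11, limma adjusted p = 1.255e-10). In second line control it read 24.4, 24.2 and 22.6, and in second line knockdown 2.88, 3.37 and 3.67, a 7.17-fold fall (adjusted p = 1.612e-09). The control and knockdown libraries did not overlap in either line.

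DDC (ENSG00000132437, chromosome 7, 50458436 to 50565457, minus strand) read 0.325, 0.320 and 0.444 FPKM in SK-N-SH control, which is 64 reads in all. It read 48.7, 48.8 and 48.6 in SK-N-SH knockdown, 134-fold higher (log2 fold 5.19, limma adjusted p = 6.054e-15). Second line control read 60.0, 62.7 and 57.1, and second line knockdown had 0 reads in all 3 libraries, a level at least 3309-fold lower (log2 fold -5.93, adjusted p = 1.890e-15). DDC thus had a low but readable level in 1 of the 2 groups where TH had no read.

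DBH (ENSG00000123454, chromosome 9, 133635348 to 133659344, plus strand) differed least among the 5 in SK-N-SH. Its FPKM was 2.66, 1.93 and 1.84 in SK-N-SH control and 8.32, 8.13 and 7.36 in SK-N-SH knockdown, 3.70-fold higher (log2 fold 1.51, limma adjusted p = 4.235e-08). It was 6.54, 5.85 and 5.42 in second line control and 0.558, 0.407 and 0.532 in second line knockdown, 11.9-fold lower (log2 fold -2.21, adjusted p = 1.423e-09). DBH shares 118 exon bases with DBH-AS1, whose group means were 2.09, 0.584, 0.767 and 0.992 FPKM from SK-N-SH control to second line knockdown. DDC likewise shares 114 with DDC-AS1, which stayed under 0.1 FPKM in all groups (0.0988 in its highest). The strand setting of the counting is not given in the sources here, and reads in shared bases cannot be assigned to 1 gene.

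PNMT (ENSG00000141744, chromosome 17, 39667981 to 39670475, plus strand), the adrenaline-forming enzyme, was below the filter and rested on few reads. It read 0.184, 0.254 and 0.147 FPKM in SK-N-SH control (16 reads) and 0.429, 0.276 and 0.306 in SK-N-SH knockdown (25 reads). Second line control read 0.482, 0.322 and 0.290 (27 reads) and second line knockdown 0.114, 0.0812 and 0.0766 (7 reads). The ratio of means was 1.73 in SK-N-SH and 4.02 in the second line, with no overlap of libraries in either. A two-sided exact permutation test of 3 against 3 libraries gave p = 0.1 in both, the smallest p that design allows, and the same holds for the other 3 genes below the filter. When limma was fitted with no filter, 45.1% of 35897 genes passed in SK-N-SH and 45.4% in the second line, and PNMT had an adjusted p of 0.0695 in SK-N-SH and 0.001897 in the second line. NR3C1, the glucocorticoid receptor, by whose ligand PNMT is known to be induced, stood at 4.65, 0.441, 0.494 and 5.72 FPKM from SK-N-SH control to second line knockdown. The chromaffin peptide gene PENK had 0 reads in SK-N-SH control and second line knockdown.

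Of the 2 vesicle transporters, SLC18A1 (ENSG00000036565, chromosome 8, 20144855 to 20183206, minus strand) read 0.0823, 0.0812 and 0.0821 FPKM in SK-N-SH control, 18 reads in all. It read 0.508, 0.515 and 0.554 in SK-N-SH knockdown, a mean 6.42-fold as high. In second line control it read 0.449, 0.374 and 0.355, and second line knockdown had 0 reads, at least 27.0-fold lower. SLC18A2 (ENSG00000165646, chromosome 10, 117241073 to 117279430, plus strand), whose window above carries TGACGTCA, read 0.0388, 0.0128 and 0.0645 in SK-N-SH control (9 reads) and 0.315, 0.319 and 0.292 in SK-N-SH knockdown, a ratio of 7.97. Second line control read 0.663, 0.480 and 0.320 and second line knockdown 0.0937, 0.0714 and 0.0269, a ratio of 7.62. Both transporters therefore stayed below 1 FPKM in all 12 libraries, including those with over 100 FPKM of TH. Limma without the filter gave adjusted p-values of 9.423e-07 and 1.219e-06 for SLC18A1, and 0.00272 and 2.177e-04 for SLC18A2, in SK-N-SH and the second line. SLC18A2 shares 2157 of its 4145 exon bases with PDZD8 on the opposite strand, which stood at 3.30, 5.78, 6.27 and 4.62 FPKM in the 4 groups, so the SLC18A2 level is uncertain.

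SLC6A2 (ENSG00000103546, chromosome 16, 55655604 to 55706192, plus strand), the noradrenaline transporter of the cell surface, had the highest level of the 3 transporters in every group but second line knockdown. It read 0.275, 0.397 and 0.333 FPKM in the SK-N-SH controls and 8.27, 8.63 and 9.24 in SK-N-SH knockdown, 26.0-fold higher (log2 fold 2.86, limma adjusted p = 8.719e-12). Second line control read 7.38, 7.23 and 8.64, and second line knockdown had 0 reads, at least 745-fold lower (log2 fold -3.13, adjusted p = 3.730e-12). The unclassified gene AC136621.1 shares 977 of the 5463 SLC6A2 exon bases on the same strand and stood at 0.231, 4.78, 4.45 and 0 FPKM in the 4 groups, so the split of reads between the 2 is uncertain.

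MAOA (ENSG00000189221, chromosome X, 43654907 to 43746824, plus strand), the enzyme of breakdown, went the same way as the enzymes of synthesis. It read 0.0291, 0.0957 and 0.155 FPKM in SK-N-SH control (29 reads) and 0.894, 0.988 and 1.03 in SK-N-SH knockdown (271 reads), a ratio of 10.4. Second line control read 0.571, 0.795 and 0.480 (173 reads) and second line knockdown 0.131, 0.0856 and 0.0303 (24 reads), a ratio of 7.49. Limma without the filter gave adjusted p = 6.633e-06 and 1.397e-04 for these. Over all 9 genes, libraries of control and knockdown did not overlap in either line. In SK-N-SH knockdown 9 of 9 were higher, as were 41.6% of the genes tested. In second line knockdown 9 of 9 were lower, as were 40.8%. Those shares cover genes above the filter only, while 4 of the 9 members lay below it.

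**Figure D2:**
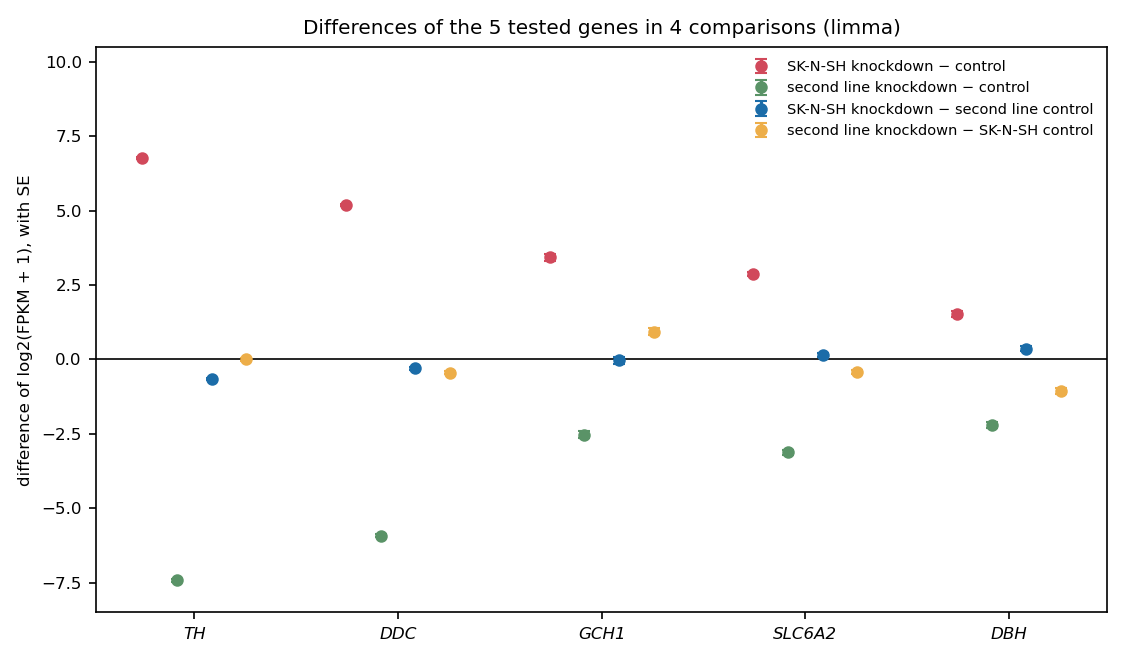
Difference of log2(FPKM + 1) of the 5 tested genes in 4 comparisons between groups of 3 libraries, fitted with limma. Points are differences, bars standard errors, many smaller than the points. Knockdown against control runs from 6.77 (TH) to 1.51 (DBH) in SK-N-SH and from -7.42 (TH) to -2.21 (DBH) in the second line, and the comparisons across lines lie between -1.06 and 0.94.

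The order of levels changed with the group. In second line control and SK-N-SH knockdown it ran TH, DDC, GCH1, SLC6A2, DBH and MAOA, all neighbours in this run being separate except SLC6A2 and DBH in SK-N-SH knockdown. In SK-N-SH control it ran DBH, GCH1, DDC, SLC6A2, with DDC and SLC6A2 overlapping and TH last at 0. In second line knockdown GCH1 stood first and DBH second, PNMT, MAOA and SLC18A2 overlapped, and TH, DDC, SLC18A1 and SLC6A2 had 0 reads. The 9 levels summed to 4.52 ± 0.576 FPKM in SK-N-SH control, 199 ± 6.27 in SK-N-SH knockdown, 270 ± 5.96 in second line control and 4.04 ± 0.281 in second line knockdown (SD, n = 3). TH made up 54.4% of that sum in SK-N-SH knockdown and 63.2% in second line control. DBH made up 47.3% in SK-N-SH control and GCH1 81.6% in second line knockdown.

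The 2 groups with high levels, second line control and SK-N-SH knockdown, were then set against each other. Their libraries correlated across genes (a description, since genes are no replicates) in log2(FPKM + 1) at 0.9859 to 0.9873, against 0.7049 to 0.7240 between the control and knockdown libraries labelled SK-N-SH. TH was 1.58-fold lower in SK-N-SH knockdown (log2 fold -0.65, SE 0.04, limma adjusted p = 2.005e-05) and DDC 1.23-fold lower (log2 fold -0.29, SE 0.05, adjusted p = 0.00533), lower in 3 of 3 libraries each. These 2 of the 5 tested genes passed, in a comparison where 5.39% of all genes (854) did and 3.12% did as lower. The 854 fell to 502 and 472 without SK-N-SH knockdown replicates 1 and 2, and to 510, 469 and 518 without second line control replicates 1, 2 and 3. The SE of TH pools the spread of all 12 libraries, and the groups in which TH had 0 reads add no spread to it. Both members still passed when only the groups compared were fitted, and without any 1 library. With a pseudocount of 0.1 in place of 1 DDC did not pass (limma adjusted p = 0.110). GCH1 was 23.2 ± 1.04 against 23.7 ± 1.0 FPKM (log2 fold -0.03, SE 0.11, adjusted p = 0.947) and SLC6A2 8.71 ± 0.487 against 7.75 ± 0.776 (adjusted p = 0.269), with overlapping libraries. DBH was 7.93 ± 0.508 against 5.93 ± 0.564, 1.34-fold higher with no overlap, and missed the threshold (log2 fold 0.37, SE 0.10, adjusted p = 0.0562). DBH did pass at a filter of 2 FPKM (0.0465) and with limma-voom on reads (0.0152), and reached 0.180 without second line control replicate 3. Of the genes below the filter, SLC18A2 stood at 0.309 against 0.488 FPKM, SLC18A1 at 0.526 against 0.393 and MAOA at 0.969 against 0.615, each with no overlap (exact permutation p = 0.1). PNMT overlapped at 0.337 against 0.364 (exact p = 0.6). In all, 6 of 9 genes did not overlap, 3 in each direction, beside 27.0% of the genes tested, all of them above the filter.

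Ratios of TH to 4 other members are given per library as a description. They were formed with the lower TH of SK-N-SH knockdown known, and so restate it in part. The ratio of TH to DBH was 13.7 ± 1.55 in SK-N-SH knockdown (12.3 to 15.4) and 28.9 ± 2.80 in second line control (25.8 to 31.2), 2.11 times as high. TH to DDC was 2.22 ± 0.111 against 2.84 ± 0.0967, TH to GCH1 4.66 ± 0.0810 against 7.19 ± 0.286, and TH to SLC6A2 12.4 ± 0.163 against 22.1 ± 2.34 (SD, n = 3). The libraries did not overlap in these 4 ratios, and each gave a two-sided exact permutation p = 0.1, the smallest possible with 3 against 3, so none could pass. The ratio of SLC18A1 to SLC18A2 was 1.71 ± 0.164 against 0.855 ± 0.225.

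**Figure D3:**
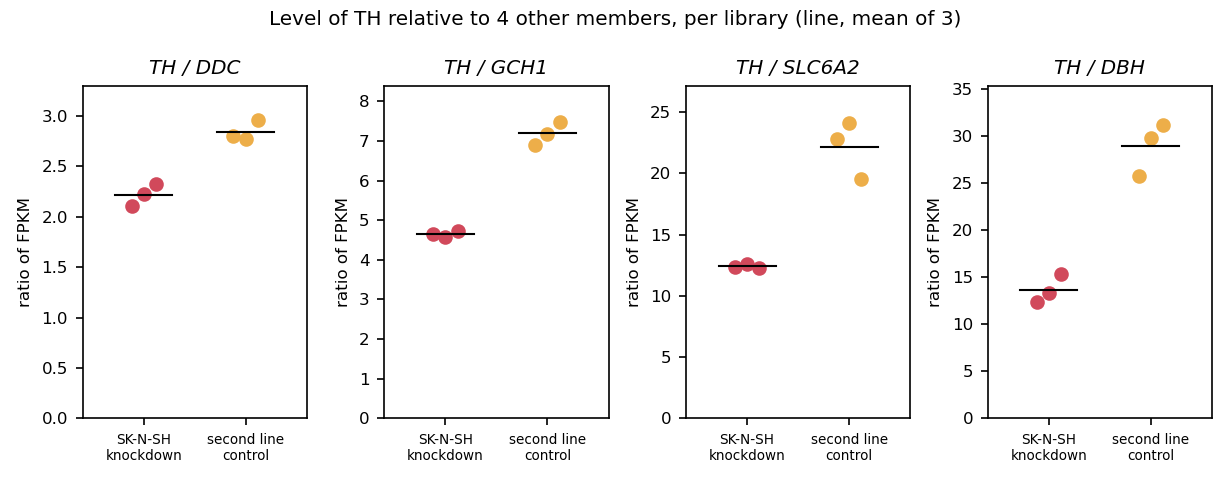
Ratio of TH to DDC, GCH1, SLC6A2 and DBH, FPKM over FPKM, in each library of second line control and SK-N-SH knockdown. Points are libraries and horizontal lines the means of 3. Every ratio is higher in second line control, from 2.84 against 2.22 for DDC to 28.9 against 13.7 for DBH.

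The 2 groups with low levels, SK-N-SH control and second line knockdown, differed gene by gene. Their libraries correlated across genes at 0.9604 to 0.9751, against 0.6919 to 0.7207 between control and knockdown of the second line. TH had 0 reads in both and gives no fold. GCH1 was 2.61-fold higher in second line knockdown (3.30 ± 0.399 against 1.26 ± 0.395 FPKM, log2 fold 0.94, SE 0.11, limma adjusted p = 9.323e-05). DBH was 4.29-fold lower there (0.499 ± 0.0806 against 2.14 ± 0.447, log2 fold -1.06, SE 0.10, adjusted p = 1.847e-05). DDC was at least 20.0-fold lower (adjusted p = 4.671e-05) and SLC6A2 at least 32.2-fold lower (adjusted p = 7.041e-04), their 64 and 103 reads in SK-N-SH control facing 0. Thus 4 of the 5 passed, 1 higher and 3 lower, where 44.1% of all genes passed, 26.9% as higher and 17.2% as lower. SLC18A1 had 18 reads against 0, at least 5.63-fold lower, and PNMT was 2.15-fold lower with no overlap (exact permutation p = 0.1). MAOA (29 and 24 reads, exact p = 0.8) and SLC18A2 (9 and 14 reads, exact p = 0.4) overlapped. Counting the 5 below and GCH1 above, 6 of 9 genes did not overlap, beside 51.0% of the genes tested, all of them above the filter. GCH1 and DBH were thus ordered oppositely in these 2 groups, DBH above GCH1 in SK-N-SH control and GCH1 above DBH in second line knockdown.

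The comparison of the 2 control groups shares its libraries with those above. All 5 tested genes were higher in second line control, where 79.6% of genes passed and 40.7% did as higher. TH was at least 10356-fold, DDC 165-fold and DBH 2.77-fold higher there than in SK-N-SH control. The change with the knockdown label itself differed between the lines for all 5, as it did for 84.9% of the genes tested, 43.1% in the direction of the 5.

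A list of 25 other genes of the pathway, covering the cofactor, the vesicle, breakdown and other amine transporters, did not move as a block. Of 16 tested, 9 rose, 6 fell and 1 did not pass in SK-N-SH, with a median log2 fold of 0.48. In the second line 6 rose, 8 fell and 2 did not pass, with a median of -0.27. Of all genes tested, 79.8% passed in SK-N-SH and 80.0% in the second line.

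Genes around tetrahydrobiopterin went both ways, 5 up and 2 down of 7 tested in SK-N-SH, and 2 up and 4 down in the second line. DNAJC12, a co-chaperone of the aromatic amino acid hydroxylases, was 8.02-fold higher in SK-N-SH knockdown (27.7 ± 1.0 against 3.45 ± 0.220 FPKM, limma adjusted p = 9.551e-12) and 9.88-fold lower in second line knockdown (2.35 ± 0.249 against 23.2 ± 1.42, adjusted p = 5.232e-12). QDPR, which regenerates the cofactor, rose 3.61-fold in SK-N-SH knockdown and fell 2.15-fold in second line knockdown. Sepiapterin reductase (SPR), the last enzyme of cofactor synthesis, went against GCH1. Its mean was 18.6 ± 1.40 FPKM in SK-N-SH control, against 6.92 ± 0.791 in SK-N-SH knockdown, 2.69-fold lower (adjusted p = 4.269e-08). It was 5.52 ± 0.556 in second line control and 27.8 ± 1.38 in second line knockdown, 5.03-fold higher (adjusted p = 5.176e-10). Within the chain from GTP, the first enzyme and the last therefore differed in opposite directions in both lines, while PTS, the middle one, was 1.55-fold higher in SK-N-SH knockdown and did not pass in the second line (adjusted p = 0.253).

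Of the vesicle genes, CYB561, which brings electrons into the vesicle where DBH works, did not pass in SK-N-SH (limma adjusted p = 0.890). It stood there at 9.998 ± 0.606 FPKM with the control label and 9.91 ± 0.185 with the knockdown label. In second line knockdown it rose 1.86-fold (limma adjusted p = 1.414e-07). MOXD1, a relative of DBH by sequence, went against DBH. It averaged 156 ± 4.22 FPKM in SK-N-SH control, against 5.67 ± 0.319 in SK-N-SH knockdown, 27.5-fold lower (limma adjusted p = 1.891e-13). It averaged 1.78 ± 0.289 in second line control and 144 ± 5.28 in second line knockdown, 80.6-fold higher (adjusted p = 2.965e-14).

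Breakdown genes split evenly in SK-N-SH, 3 up and 3 down of 6 tested, where 79.8% of all genes tested passed and 40.7% did as higher. In the second line 2 rose, 3 fell and 1 did not pass. MAOB, the other monoamine oxidase, was below the filter and opposite to MAOA in SK-N-SH, with 66 reads in control and 0 in knockdown, at least 19.8-fold lower. It had 2 reads in second line control and 1 in second line knockdown. ALDH9A1, an aldehyde dehydrogenase that acts on amine-derived aldehydes, fell 2.66-fold in SK-N-SH and rose 3.92-fold in the second line. Among other amine transporters only SLC29A4, a low-affinity monoamine transporter, was tested, and it rose 2.41-fold in SK-N-SH knockdown and fell 1.96-fold in second line knockdown. The dopamine transporter SLC6A3 had 7 reads in SK-N-SH knockdown, 4 in second line control and 0 elsewhere.

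**Figure D4:**
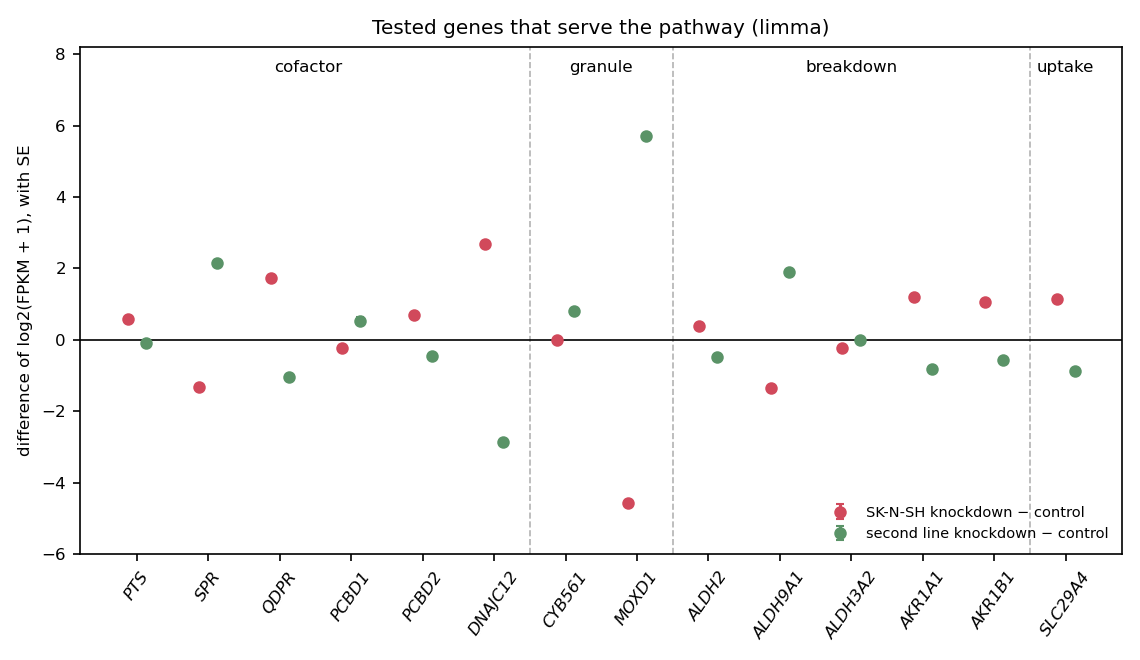
Log2 fold of knockdown over control, on log2(FPKM + 1), of 14 of the 16 tested genes that serve the pathway, with SK-N-SH and the second line side by side. Points are limma estimates and bars their standard errors, most of them smaller than the points. DNAJC12 and QDPR lie on the same sides as the members, and MOXD1, SPR and ALDH9A1 on the opposite sides.

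Catecholamine receptors were mostly low: 5 of 14 passed the filter, of which 3 rose, 1 fell and 1 did not pass in SK-N-SH, with 1, 3 and 1 in the second line. Of all genes tested, 79.8% passed in SK-N-SH and 80.0% in the second line. DRD2, ADRA2A and ADRA1D, and SLC18A3 below, passed the filter only through the groups where they were high. DRD2, a dopamine receptor that also acts as an autoreceptor, stood at 0.0261 FPKM (6 reads) in SK-N-SH control and 2.04 in SK-N-SH knockdown, 78.0-fold higher, and at 3.17 in second line control against 0 reads in second line knockdown. ADRA2A, the inhibitory receptor on noradrenergic neurons, stood at 0.819 FPKM in SK-N-SH knockdown and 1.86 in second line control, with 1 read in SK-N-SH control and 0 in second line knockdown. ADRA2C rose 7.40-fold in SK-N-SH and fell 3.01-fold in the second line. ADRA1D, a receptor for noradrenaline of another class, went the other way at 0.458, 0.0137, 0.0284 and 4.50 ± 1.40 FPKM from SK-N-SH control to second line knockdown. Of 8 genes for other transmitters, 1 was tested: SLC18A3, the vesicular acetylcholine transporter, rose 15.9-fold in SK-N-SH and fell 5.59-fold in the second line.

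A list of 11 transcription factors, those of the sympathetic lineage together with the neuronal repressor REST, was tested in full. It had 9 up and 2 down (REST and TBX2) in SK-N-SH, and 1 up (REST), 9 down and 1 not passing (TBX2) in the second line. Of all genes tested, 40.7% passed as higher in SK-N-SH and 40.2% as lower in the second line. The median log2 fold of the 11 was 2.50 and -2.98. Among those named below, TFAP2B passed the filter only through the groups where it was high. PHOX2A, a homeodomain factor of noradrenergic neurons, averaged 9.22 ± 2.81 FPKM in SK-N-SH control, against 299 ± 11.1 in SK-N-SH knockdown. It averaged 294 ± 12.7 in second line control and 0.920 ± 0.289 in second line knockdown. TFAP2B rose 131-fold and HAND2 5.72-fold in SK-N-SH, and they fell at least 5052-fold and 8.02-fold in the second line. GATA2 rose 55.5-fold in SK-N-SH and fell from 62.8 to 4.18 FPKM in the second line. REST, a repressor of neuronal genes, was 2.63-fold lower in SK-N-SH knockdown (2.10 ± 0.0838 against 5.53 ± 0.427 FPKM, limma adjusted p = 6.218e-08) and 2.57-fold higher in second line knockdown (5.56 ± 0.511 against 2.16 ± 0.195, adjusted p = 6.999e-08).

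Among the genes above the filter, those closest in level to a member were taken by the smallest mean absolute difference in log2(FPKM + 1) over the 12 libraries. For TH these were MYCNOS, the antisense neighbour of MYCN (0.321), the neuropeptide gene GAL (0.325) and the surface protein gene CD24 (0.338). MYCNOS shared with TH the absence of reads in SK-N-SH control and second line knockdown, and stood at 90.8 ± 10.2 FPKM in SK-N-SH knockdown and 83.4 ± 10.8 in second line control. For DBH they were the corepressor gene TLE2 (0.129), the apoptosis gene BCL2L11 (0.220) and DAND5 (0.222). TLE2 had the same order of groups as DBH, at 2.11, 7.49, 5.25 and 0.469 FPKM. For MAOA they were C12orf60 (0.111), PSTPIP1 (0.123) and PTPN20 (0.126), all at 1.15 FPKM or less in each group. MAOA itself lay below the filter, so genes as low as it were not searched. This measure takes the level itself into account, so genes of other levels with a parallel course are not found by it.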

How the data were processed

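RNA was sequenced from 12 libraries, with 3 µg of RNA each and a NEBNext Ultra kit, per the labels' protocols. The submitters' processing notes name the tools HISAT2 (2.0.5) and featureCounts (1.5.0-p3), and mm10 as build. The deposited values are the authors' FPKM per gene, beside gene length in bases and other annotation. All 58735 genes are human, with the start and end of GENCODE release 29 on GRCh38, the build used here. FPKM times length was a whole number of reads for 100% of values (tolerance 0.05 reads), and the scaling followed size factors, not library totals. The floors of 3 reads over a group cover counting error only.

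Groups came from the titles, and 0 columns belonged to no sample. Genes with a mean of at least 0.5 FPKM over the 12 libraries (15856) were analysed as log2(FPKM + 1), which understates changes of low genes, with limma 3.58.1 in R 4.3.3. The model had 4 group means and a trended prior, and p-values were two-sided with Benjamini-Hochberg adjustment over all genes tested and a threshold of 0.05. Spread was pooled over all 12 libraries, so groups with 0 reads, as for TH, DDC and SLC6A2, add none of their own to the SE. A fold not called log2 is a ratio of mean FPKM. Genes below the filter had an exact permutation test in scipy 1.17.1. The steps were tested on simulated data. Alternatives were the pseudocount, the filter, leaving out each library, the replicate block and limma-voom on recovered reads. Also run were fits of only the groups compared and of values rescaled to library totals.

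The 9 genes, the lists and the tests were chosen with earlier results of these data known. Named from the lists were up to 6 called genes with the largest change, besides QDPR, CYB561, MAOB, SLC6A3 and REST. For TH, DBH and MAOA the 3 genes closest in level among those tested were also named. PTS and SLC29A4 were named after their values were seen. Some genes that the rule takes, though counted in their lists, are not reported here.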

Additional observations from a re-analysis of the deposited data

Results flagged for a closer look

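The effect of the knockdown label differed between the lines for all 9 genes, given in log2(FPKM + 1) as the second line less SK-N-SH. The difference was -14.19 for TH, -11.12 for DDC, -5.99 for SLC6A2, -5.96 for GCH1 and -3.72 for DBH, each past the threshold in limma's test of the difference itself, as were 84.9% of all genes tested. For MAOA it was -1.42, for SLC18A1 -0.97, for SLC18A2 -0.81 and for PNMT -0.48. In each of them the knockdown libraries lay above all controls in SK-N-SH and below all controls in the second line. These 4 lay below the filter and their difference was not tested in that fit. With no filter, where 51.5% of all genes passed, limma gave them adjusted p = 1.162e-06, 4.1e-08, 4.242e-05 and 0.001054. TSPYL5 itself went opposite ways under the label in the 2 lines, and the part of that in these differences was not tested.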

How the results depend on the processing

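Of the log2 folds of members under all alternatives run, 434 were labelled the same. Another 3 came to pass the threshold, 1 was lost and 1 reversed. For the 5 tested members, the same means an unchanged direction and side of the threshold. The 4 below the filter had no main test and entered only in the fit with no filter. Their folds there equal the differences of group means by construction, so that label was fixed in advance. For the 5 tested members too, a changed filter leaves the group means as they are, so no direction could reverse there. TH had 0 reads in both groups with low levels, so its fold between them could not change without a library (0 to 0). The number labelled the same is therefore in part fixed in advance. The reversal was GCH1 between the groups with high levels, past the threshold in neither, at 0.0044 without SK-N-SH knockdown replicate 1 against -0.03 (-0.0659 to 0.0044 over the libraries left out). With no filter on low values all 9 members were tested, and 8 passed in SK-N-SH, 9 in the second line, 9 in the difference between lines and 9 between controls, beside 45.1%, 45.4%, 51.5% and 45.1% of all genes. Between second line control and SK-N-SH knockdown, a pseudocount of 0.1 left 1 of the 2 member calls, DDC being lost (log2 fold -0.30, adjusted p = 0.110). DBH passed there at a mean of 2 FPKM (0.0465), with limma-voom, chosen after seeing the data (0.0152), and with the replicate block (0.0271), and its adjusted p reached 0.180 without second line control replicate 3. Leaving out 1 library gave 469 to 637 genes called in that comparison. Replicate numbers did not pair the libraries: same-number deviations correlated between -0.0751 and 0.1021. With the replicate block 12569 genes passed in SK-N-SH, 12619 in the second line, 13393 for the difference, 12541 between controls, 692 and 6752 in the 2 comparisons across lines, with 5, 5, 5, 5, 3 and 4 members. The planned count tests, edgeR and DESeq2, were left out on the ground that the deposited unit is FPKM. Whole reads were recovered all the same, and only limma-voom was run on them. PNMT, SLC18A1, SLC18A2 and MAOA rest on 0 to 271 reads per group, which limits their precision.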
